A study of Mus musculus with 2 samples.

Results

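The 9 genes of the vascular endothelial growth factor (VEGF) system in mouse brain nuclei were described here, in a whole-brain irradiated and a mock-irradiated library. They were the ligands Vegfa, Vegfb, Vegfc and Pgf, the receptors Flt1, Kdr and Flt4, and the neuropilins Nrp1 and Nrp2. They were taken by gene symbol from the 27998 genes of the matrices, and all 9 were found in both. WBRT-28d came from C57BL/6 mice (C57BL/6J in the study's methods) whose whole brain received 2 Gy on each of 5 days, and ShamRT-28d from C57BL/6 mice labelled untreated and mock-irradiated in the study's methods. Both were collected at day 28. By those methods the mice were wild-type females a few weeks old when bought, and nuclei of 2 brains were pooled in each library with no label that separates the mice. The brains were whole and frozen, and single nuclei were profiled with a droplet method that reads the 3′ end of polyadenylated RNA and counts unique molecular identifiers (UMIs), one for each captured RNA molecule. With 1 library per condition there was no replicate and no test between the conditions. Every interval below is a 95% interval of counting error only, and it does not cover differences between mice or preparations. Intervals of levels and ratios take each UMI as independent, although 1 nucleus can hold many. They leave out the spread between nuclei and are too narrow where UMIs gather in few nuclei.

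VEGF ligands are secreted proteins that bind receptor tyrosine kinases on blood vessels. VEGF-A is the main driver of vessel growth and permeability and signals through KDR (VEGFR2), while FLT1 (VEGFR1) binds VEGF-A, VEGF-B and placental growth factor tightly and largely acts as a trap. VEGF-C acts on FLT4 (VEGFR3), best known from lymphatic vessels, and neuropilins are co-receptors that also bind class 3 semaphorins, the guidance cues of axons. In the adult brain VEGF-A is known as a product of astrocytes and other glia, and its receptors as products of endothelium.

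The libraries held 15986 barcodes and 68423922 UMIs in WBRT-28d, against 11469 barcodes and 45511469 UMIs in ShamRT-28d, and 14043 and 10342 nuclei were kept. The median was 2565 UMIs per barcode in WBRT-28d and 2291 in ShamRT-28d. The files carry no cell types, so nuclei were clustered and named from markers, with none of the 9 genes used in clustering or naming. This gave 16 classes, each called X-like, and left 9.46% of the nuclei of WBRT-28d and 7.30% of those of ShamRT-28d unnamed. Genes of neurons stood at 30.3% of their library mean in endothelial-like nuclei of WBRT-28d and at 13.6% in those of ShamRT-28d, and at 28.0% and 14.7% in microglia-like nuclei, so neuron genes were higher in these nuclei of WBRT-28d. The libraries shared 43 barcodes.

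A level is given as CPM, the UMIs of the gene in a class of 1 library scaled to a class total of 1000000 UMIs, and a ratio is the CPM of WBRT-28d over that of ShamRT-28d. A ratio was given to 62 of the 144 pairs of a gene and a class, those with 50 UMIs or more when the libraries were added. A ratio of at least 1.5, or of at most 1/1.5, is called past the fold. Of the 62 ratios, 19 were past it as higher in WBRT-28d, 12 as lower and 31 were not past it, and 25 of the 62 intervals included 1. Over all genes the share past it ran from 4.05% to 21.5% as higher in the classes with such pairs. As lower it ran from 4.83% to 12.1%. Flt1 was among the higher pairs in each class that had any, where other endothelial genes were higher too. Another 10 pairs had no UMI in either library.

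**Figure D1:**
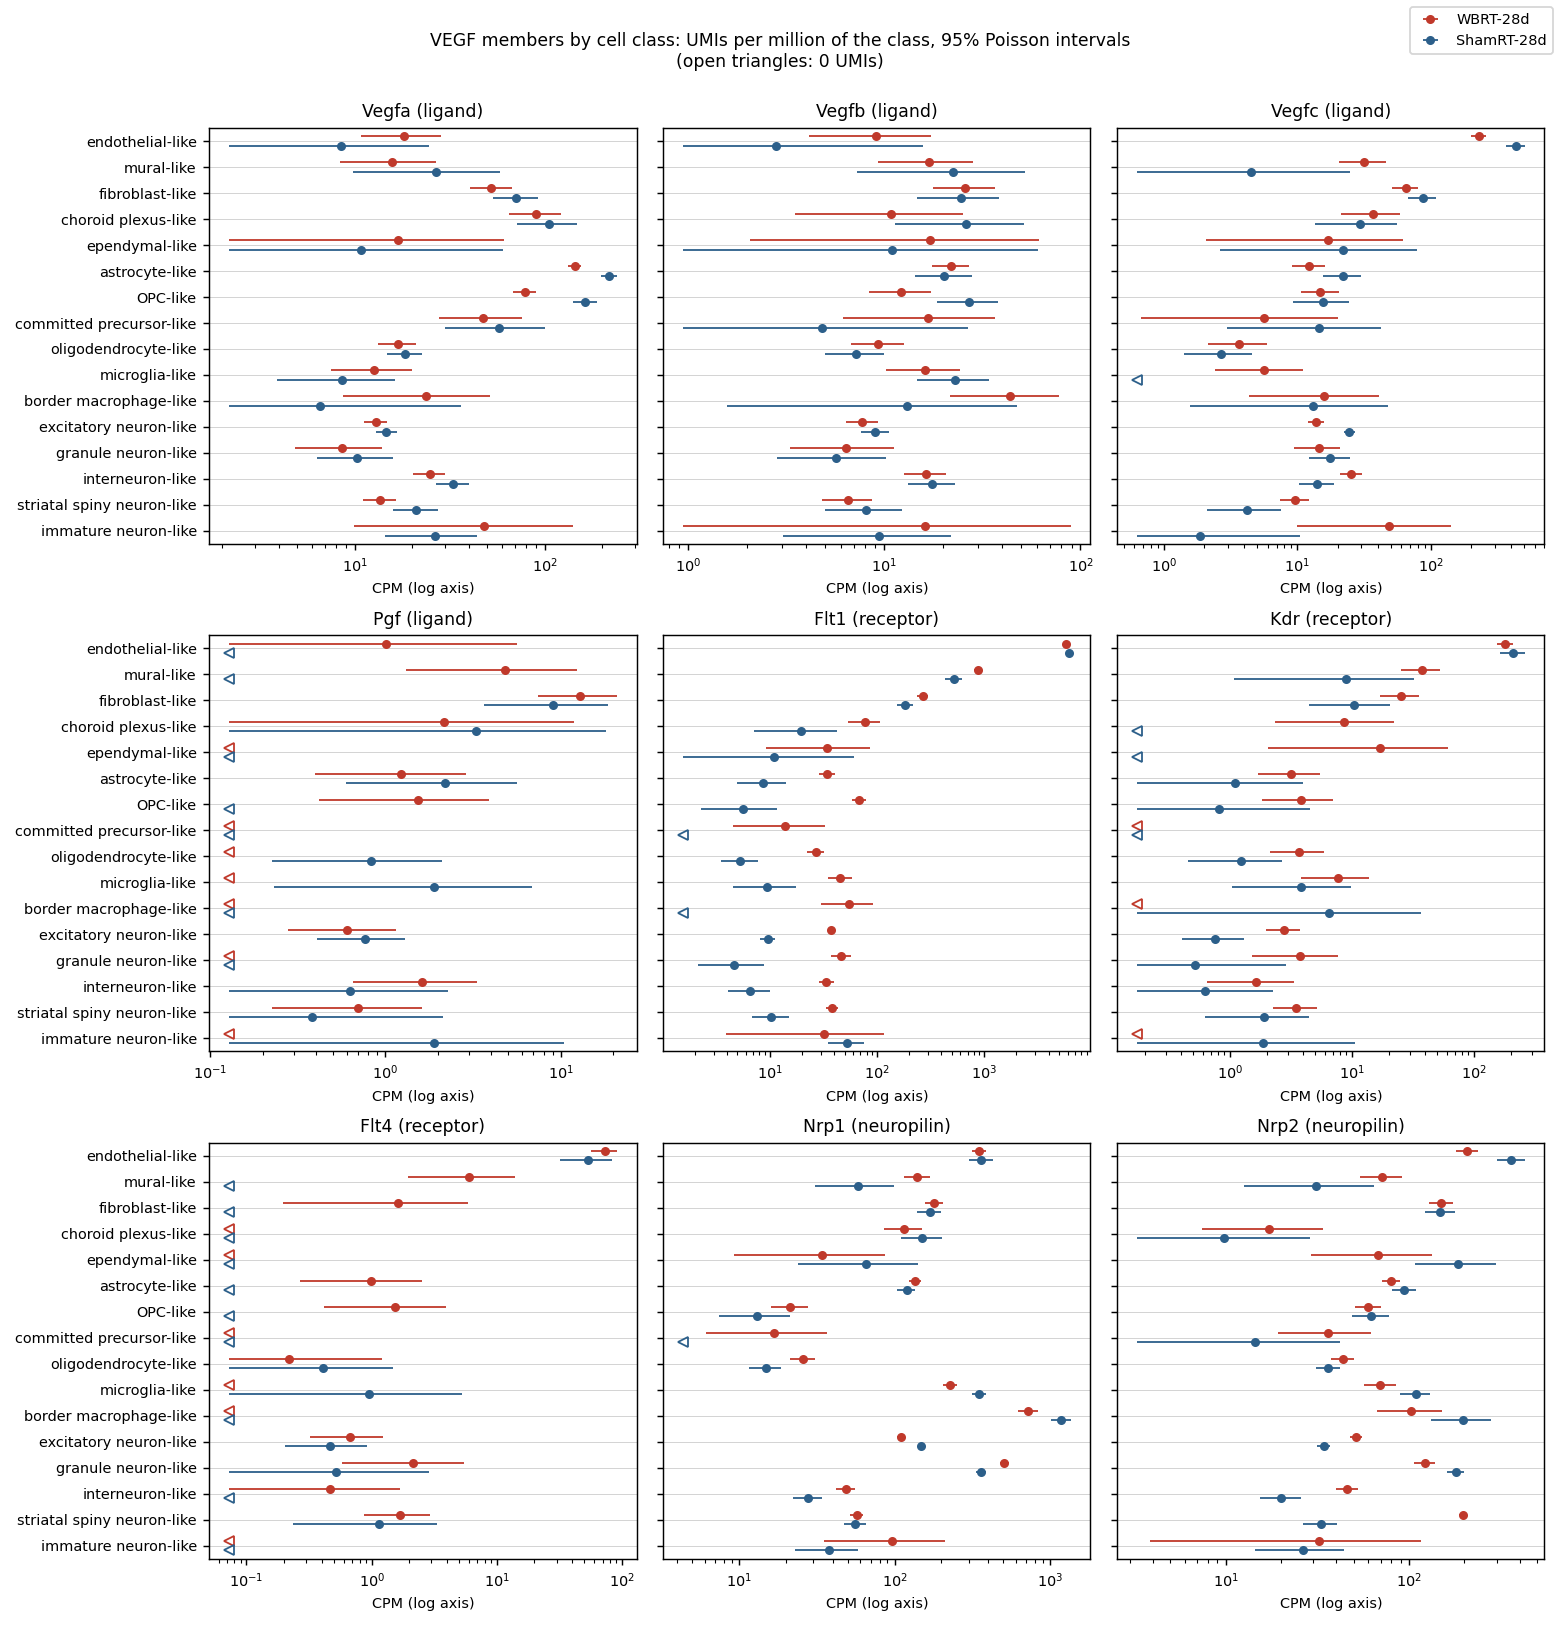
CPM of each of the 9 genes (1 panel each, log axis) in the 16 classes, with WBRT-28d in red above ShamRT-28d in blue and 95% Poisson intervals; open triangles mark 0 UMIs. Flt1 stands at 5800 and 6186 CPM in endothelial-like nuclei, Vegfa is highest in astrocyte-like nuclei, and Nrp1 in border macrophage-like nuclei.

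Astrocyte-like nuclei had the highest Vegfa level of any class in each library, and the level was lower in WBRT-28d there and in oligodendrocyte precursor (OPC)-like nuclei. The gene lies on chromosome 17 at 46016993 to 46032369 on the minus strand (GRCm38), and 27.9% of its length is exonic. Astrocyte-like nuclei held 587 Vegfa UMIs, or 144 CPM (133 to 156), in WBRT-28d and 399 UMIs, or 218 CPM (197 to 241), in ShamRT-28d. The intervals did not overlap, and the ratio was 0.660 (0.580 to 0.751). Of 1379 such nuclei of WBRT-28d (median 2684 UMIs) 30.9% held Vegfa, and of 684 of ShamRT-28d (median 2343 UMIs) 35.4%. After thinning each nucleus of at least 1000 UMIs to that depth, these shares were 12.9% and 18.4%. This left out 0 such nuclei of WBRT-28d and 28 of ShamRT-28d, those under 1000 UMIs. As a background, granule neuron-like nuclei, which had little of the gene, showed it in 2.89% and 2.78% of nuclei, with medians of 2601 and 2065 UMIs. The level of 8 astrocyte markers, summed, was 6527 CPM in WBRT-28d and 6649 CPM in ShamRT-28d, and single markers had ratios of 0.703 (Gja1) to 1.10 (Gli3).

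The class was made of 2 clusters in which Vegfa went different ways. In the larger one, led by Acsbg1, Atp13a4 and Grin2c, Vegfa was at 152 CPM in WBRT-28d and 270 CPM in ShamRT-28d, a ratio of 0.564 (0.490 to 0.649). In the smaller one, led by Myoc, Gfap and Thbs4, it was at 114 and 93.3 CPM, a ratio of 1.23 (0.865 to 1.76), which includes 1. The 2 intervals do not overlap, and the difference between the clusters was not tested over samples.

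In OPC-like nuclei, the dividing precursors of myelinating cells, Vegfa was at 78.9 CPM (68.5 to 90.4; 207 UMIs) in WBRT-28d and 164 CPM (142 to 188; 201 UMIs) in ShamRT-28d. The ratio of 0.482 (0.395 to 0.588) was the lowest of the 8 Vegfa ratios. Vegfa was found in 19.4% of OPC-like nuclei of WBRT-28d and 30.9% of those of ShamRT-28d (7.13% and 13.95% after thinning), with medians of 3057 and 2868 UMIs. The summed level of 7 OPC markers was 14660 CPM in WBRT-28d and 16565 CPM in ShamRT-28d. Single markers had ratios of 0.673 (Vcan) to 1.14 (Cspg4), with Pdgfra at 0.688.

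**Figure D2:**
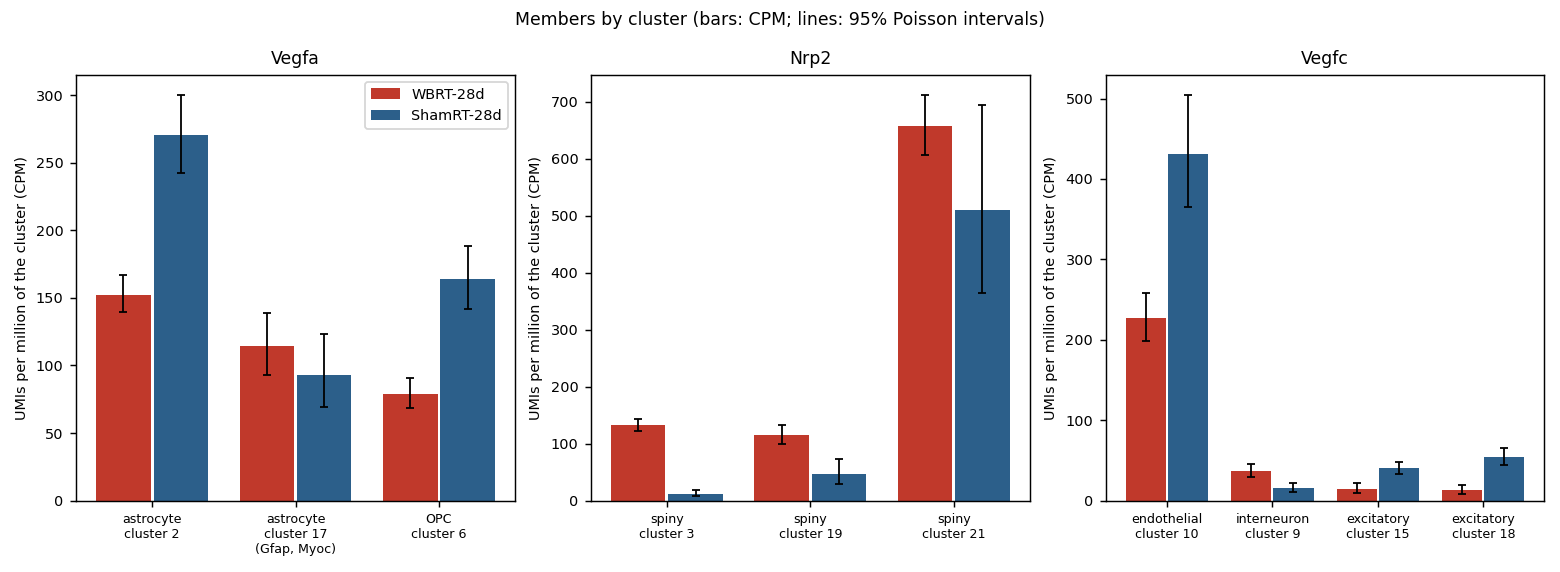
CPM (bars start at 0) of Vegfa, Nrp2 and Vegfc in named clusters, WBRT-28d in red to the left of ShamRT-28d in blue, with 95% Poisson intervals. Vegfa is at 152 and 270 CPM in the larger astrocyte cluster, Nrp2 at 133 and 12.3 CPM in the largest spiny neuron cluster, and Vegfc at 13.5 and 53.8 CPM in 1 excitatory cluster.

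The other classes held less Vegfa. Choroid plexus-like nuclei, the secretory epithelium of the ventricles, had 90.4 CPM in WBRT-28d and 105 CPM in ShamRT-28d, with a ratio of 0.862 (0.531 to 1.41). In fibroblast-like nuclei of the meninges and vessel walls the ratio was 0.741 (0.510 to 1.08), at 52.6 and 71.0 CPM. Among neurons the ratio was 0.648 (0.461 to 0.918) in striatal spiny neuron-like nuclei, at 13.6 and 21.1 CPM, and 0.753 (0.570 to 0.995) in interneuron-like nuclei, at 24.8 and 33.0 CPM. In excitatory neuron-like nuclei it was 0.879 (0.725 to 1.06), at 12.9 and 14.7 CPM, and in oligodendrocyte-like nuclei 0.915 (0.667 to 1.25), at 16.9 and 18.5 CPM. All 8 ratios lay below 1, and the 3 that passed the fold, those of astrocyte-, OPC- and spiny neuron-like nuclei, were lower in WBRT-28d. The astrocyte-like ratio was just short of the fold at a clustering resolution of 1.6 (0.675), with a minimum of 1000 genes per nucleus (0.677) and with scaling by a median of ratios (0.672), and the spiny neuron-like one with that minimum (0.685). Endothelial-like nuclei held 18 Vegfa UMIs in WBRT-28d and 3 in ShamRT-28d, too few for a ratio.

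In the order of Vegfa levels, astrocyte-like nuclei were apart from the next class in both libraries, while the intervals of choroid plexus- and OPC-like nuclei overlapped in WBRT-28d, and those of OPC-like nuclei stood above choroid plexus-like nuclei in ShamRT-28d with intervals that overlapped. By counts, astrocyte-like nuclei held 34.7% of all Vegfa UMIs of WBRT-28d and 29.6% of those of ShamRT-28d. OPC-like nuclei held 12.2% and 14.9%, and excitatory neuron-like nuclei 11.4% and 18.7%.

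Of the 9 VEGF genes 6 were measured in astrocyte-like nuclei, with 1 past the fold as higher (Flt1) and 2 as lower (Vegfa and Vegfc), where 7.21% of all genes of the class were higher and 7.67% lower. In OPC-like nuclei 6 were measured as well, with 2 higher (Flt1 and Nrp1) and 2 lower (Vegfa and Vegfb), where 6.56% of all genes were higher and 5.41% lower. In each class the higher and the lower members both made up a larger share of the 6 than such genes did of all genes, in a list too short for more.

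Vegfa is a textbook target of the hypoxia-inducible factors, so 18 genes of oxygen sensing were read beside it. In astrocyte-like nuclei 14 of 18 were measured, 3 past the fold as higher and 0 as lower, where 7.21% and 7.67% of all genes were. The median log2 ratio of the 14 was 0.22, against -0.02 over all genes of the class. Epas1, which encodes HIF-2 alpha, was at 135 CPM in WBRT-28d and 120 CPM in ShamRT-28d, a ratio of 1.12 (0.958 to 1.32). Arnt, the partner of these factors, had a ratio of 0.886 (0.759 to 1.04), and Hif1a 0.919 (0.760 to 1.12). Hif3a, a further family member, had 116 and 69.5 CPM and a ratio of 1.67 (1.37 to 2.04). In OPC-like nuclei 7 of 18 were measured and 0 were past the fold, with a median log2 ratio of 0.04, against 0.02 over all genes. There Epas1 had a ratio of 1.15 (0.940 to 1.40), Arnt 0.831 (0.670 to 1.03) and Hif1a 0.900 (0.708 to 1.15).

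The 250 bases before the outermost RefSeq start of Vegfa are shown because its level differed between the libraries and hypoxia-inducible factors are known to bind promoters with the letters ACGTG. They were read from RefSeq on GRCm38.p6 at chr17:46032378-46032627, minus strand, and GGAAG or CTTCC, the core letters of ETS factor sites, are in capitals.
Vegfa: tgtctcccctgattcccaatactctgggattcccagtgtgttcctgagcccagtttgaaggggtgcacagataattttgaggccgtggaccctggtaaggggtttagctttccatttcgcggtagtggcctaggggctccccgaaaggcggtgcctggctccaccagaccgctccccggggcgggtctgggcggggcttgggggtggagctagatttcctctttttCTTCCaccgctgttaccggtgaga
ACGTG or CACGT was not in this window, which says nothing of sites elsewhere, and these letters were in 16.6% of 32851 promoter windows of the same length. The window of a second RefSeq start of Vegfa, chr17:46025164-46025413, held them 1 time. GGAAG or CTTCC occurred 1 time, as CTTCC near the start, and was in 64.1% of the windows.

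Vegfb, on chromosome 19 at 6982473 to 6987651 (minus strand), encodes a ligand of FLT1 linked to fat handling and tissue survival rather than to vessel growth. It was spread over the classes, and only its ratio in OPC-like nuclei was past the fold. There it was at 12.2 CPM (32 UMIs) in WBRT-28d and 26.9 CPM (33 UMIs) in ShamRT-28d, a ratio of 0.453 (0.270 to 0.761). With an estimate of free RNA subtracted, the library mean of the gene scaled by the level of neuron genes in the class, the ratio was 0.138. That step took 79.9% of the level in WBRT-28d and 34.0% in ShamRT-28d. Neuron genes stood at 84.0% and 80.2% of their library mean in OPC-like nuclei. Whether they were free RNA there was not tested, so the 0.138 may come from too large a subtraction. Vegfb was found in 4.13% and 8.20% of these nuclei. The highest level in WBRT-28d was that of border macrophage-like nuclei, at 43.5 CPM on 11 UMIs, and the highest in ShamRT-28d that of OPC-like nuclei. No class stood apart from its neighbour at the top of either order.

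The other 6 Vegfb intervals included 1. The ratio was 1.06 (0.581 to 1.97) in fibroblast-like, 1.08 (0.728 to 1.63) in astrocyte-like and 1.30 (0.811 to 2.09) in oligodendrocyte-like nuclei. It was 0.924 (0.641 to 1.34) in interneuron-like, 0.857 (0.667 to 1.10) in excitatory neuron-like and 0.813 (0.477 to 1.43) in spiny neuron-like nuclei. Levels in these 6 classes ran from 6.54 to 25.9 CPM in WBRT-28d, against 7.19 to 24.5 CPM in ShamRT-28d.

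Vegfc, on chromosome 8 at 54077606 to 54187096 (plus strand), was highest in endothelial-like nuclei in both libraries, and its level there was lower in WBRT-28d. It was at 227 CPM (198 to 259; 225 UMIs) in WBRT-28d and 431 CPM (365 to 505; 153 UMIs) in ShamRT-28d, a ratio of 0.527 (0.427 to 0.651). Vegfc was found in 20.5% of 532 endothelial-like nuclei of WBRT-28d (median 1661 UMIs) and 22.8% of 228 of ShamRT-28d (median 1390 UMIs). Thinned to 1000 UMIs, the shares were 14.03% and 20.03%, with 0 nuclei of WBRT-28d and 35 of ShamRT-28d left out for lower depth. Oligodendrocyte-like nuclei, which had little of the gene and medians of 2140 and 2179 UMIs, showed it in 0.896% and 0.521%. The summed level of 9 endothelial markers was 13523 CPM in WBRT-28d and 16817 CPM in ShamRT-28d, a ratio of 0.804 (0.780 to 0.829). The interval of Vegfc lay below that ratio, but its 225 and 153 UMIs came from 109 and 52 nuclei, a spread that the interval does not cover.

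Neurons also held Vegfc, at lower levels and with ratios in both directions. In interneuron-like nuclei it was at 25.3 CPM in WBRT-28d and 14.1 CPM in ShamRT-28d, a ratio of 1.79 (1.25 to 2.59). A cluster led by Sst, Crhbp and Rbp4 carried most of these UMIs, with 36.8 and 15.7 CPM, a ratio of 2.35 (1.54 to 3.69). In spiny neuron-like nuclei the ratio was 2.28 (1.20 to 4.78), on 69 UMIs in WBRT-28d and 11 in ShamRT-28d. In excitatory neuron-like nuclei Vegfc went the other way, at 13.8 and 24.5 CPM and a ratio of 0.561 (0.473 to 0.665). Within that class 1 cluster led by Rspo2 had 14.97 and 40.02 CPM, a ratio of 0.374 (0.237 to 0.569), and 1 led by Tmc1 had 13.5 and 53.8 CPM, a ratio of 0.2504 (0.155 to 0.391). Excitatory neuron-like nuclei held 18.7% of the Vegfc UMIs of WBRT-28d and 48.4% of those of ShamRT-28d, against 20.5% and 17.7% in endothelial-like nuclei. Vegfc was found in 4.31% and 7.45% of excitatory neuron-like nuclei (1.32% and 1.79% after thinning), beside 0.403% and 0.299% of oligodendrocyte-like nuclei after thinning, and the part of free RNA in neurons was not tested. The interneuron-like ratio was 1.40 with nuclei picked by a marker gate in place of clusters and 2.72 with each nucleus weighted the same, and the spiny neuron-like one 4.64 with that weighting.

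Vegfc was also past the fold in astrocyte-like nuclei, at 12.3 CPM in WBRT-28d and 21.9 CPM in ShamRT-28d, with a ratio of 0.561 (0.363 to 0.872), but with doublets kept the ratio was 0.815. The remaining 3 intervals included 1. The ratio was 0.749 (0.534 to 1.05) in fibroblast-like nuclei, at 64.7 and 86.4 CPM, 0.960 (0.541 to 1.76) in OPC-like nuclei and 0.820 (0.476 to 1.40) in granule neuron-like nuclei.

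Pgf encodes placental growth factor, a ligand of FLT1, and lies on chromosome 12 at 85166635 to 85177790 (minus strand). It had 100 UMIs in all and no class reached 50, so no ratio was given. Fibroblast-like nuclei held the most, with 16 UMIs (12.9 CPM, in 3.10% of nuclei) in WBRT-28d and 7 UMIs (9.03 CPM, in 2.50%) in ShamRT-28d. A difference was not detectable at this depth. Vegfd, listed under its older symbol Figf and not counted among the 9, had 351 UMIs in WBRT-28d and 204 in ShamRT-28d.

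Flt1 was the most abundant of the 9 genes, with 13228 UMIs, most of them in endothelial-like nuclei. It lies on chromosome 5 at 147561604 to 147726011 (minus strand), and 8.21% of its length is exonic, so intronic RNA of the nucleus can add to its count. Endothelial-like nuclei held 5752 Flt1 UMIs, or 5800 CPM (5651 to 5952), in WBRT-28d and 2197 UMIs, or 6186 CPM (5930 to 6450), in ShamRT-28d. The ratio was 0.938 (0.892 to 0.985), nearer to 1 than the 0.804 of the 9 endothelial markers. Flt1 was found in 97.7% of endothelial-like nuclei of WBRT-28d and 93.0% of those of ShamRT-28d, and in 95.5% and 92.3% after thinning. The receptor was therefore detected in nearly every endothelial-like nucleus of both libraries.

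Kdr lies on the same chromosome at 75932827 to 75978458 (minus strand) and encodes the main signalling receptor for VEGF-A. In endothelial-like nuclei it was at 178 CPM (153 to 207; 177 UMIs) in WBRT-28d and 208 CPM (164 to 262; 74 UMIs) in ShamRT-28d. The ratio of 0.857 (0.650 to 1.14) included 1. Kdr was found in 26.9% and 22.8% of these nuclei, or 16.1% and 16.97% after thinning, against 0.896% and 0.312% of oligodendrocyte-like nuclei before thinning. At this depth no difference in Kdr was detectable.

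Flt4, on chromosome 11 at 49609263 to 49652739 (plus strand), had 182 UMIs in all. Endothelial-like nuclei held 72 in WBRT-28d and 19 in ShamRT-28d, at 72.6 and 53.5 CPM, and the ratio of 1.36 (0.810 to 2.38) included 1. It was found in 11.8% and 7.46% of endothelial-like nuclei. Per kilobase of gene length, the receptor levels in endothelial-like nuclei were 35.3 CPM per kilobase for Flt1, 3.91 for Kdr and 1.67 for Flt4 in WBRT-28d, against 37.6 for Flt1, 4.57 for Kdr and 1.23 for Flt4 in ShamRT-28d. The order of the receptors was the same in both libraries.

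The 250 bases before the starts of both VEGF-A receptors and of Vegfc are shown because the results in endothelial-like nuclei turn on these genes. ETS factors are known to act at many endothelial promoters, and their core letters GGAAG or CTTCC are in capitals, counted on both strands. The windows, from RefSeq on GRCm38.p6, were chr5:147726012-147726261 (minus strand) for Flt1, chr5:75978456-75978705 (minus strand) for Kdr and chr8:54077282-54077531 (plus strand) for Vegfc.
Flt1: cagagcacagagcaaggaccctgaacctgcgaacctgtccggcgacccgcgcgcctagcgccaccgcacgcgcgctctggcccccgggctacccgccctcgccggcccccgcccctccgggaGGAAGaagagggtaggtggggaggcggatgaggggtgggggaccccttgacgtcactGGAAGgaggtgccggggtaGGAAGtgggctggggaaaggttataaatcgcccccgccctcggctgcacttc
Kdr: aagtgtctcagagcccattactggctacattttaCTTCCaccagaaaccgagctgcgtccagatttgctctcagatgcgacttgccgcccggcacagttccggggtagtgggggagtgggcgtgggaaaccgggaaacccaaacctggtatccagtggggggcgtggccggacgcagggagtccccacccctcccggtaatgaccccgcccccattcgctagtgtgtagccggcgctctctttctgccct
Vegfc: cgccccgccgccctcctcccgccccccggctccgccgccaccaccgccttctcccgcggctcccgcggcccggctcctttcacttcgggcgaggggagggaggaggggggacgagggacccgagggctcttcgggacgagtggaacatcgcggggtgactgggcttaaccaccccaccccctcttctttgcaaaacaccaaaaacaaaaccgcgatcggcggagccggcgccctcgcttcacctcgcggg
The letters occurred 3 times before Flt1, 1 time before Kdr and 0 times before Vegfc. Before Flt4 and Nrp2, among the named classes also highest in endothelial-like nuclei, they occurred 1 time and 0 times. Since 64.1% of all promoter windows held them, a match is a description and not a binding site, and their absence from a window says only that they were not there.

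Among endothelial-like nuclei, Kdr was found in 27.3% of those with Flt1 in WBRT-28d and 24.5% in ShamRT-28d. Nrp1, which joins KDR as a co-receptor, was found in 44.8% of nuclei with Kdr and 35.7% of nuclei without it in WBRT-28d, and in 48.1% and 32.4% in ShamRT-28d. Nuclei with Kdr were deeper, at medians of 1795 against 1617 UMIs in WBRT-28d and 1715 against 1282 in ShamRT-28d, and the part of depth in this was not tested. Nrp2 was found in 28.4% of nuclei with Vegfc and 20.1% of nuclei without in WBRT-28d, and in 25.0% of both kinds in ShamRT-28d.

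Of the 9 genes 6 were measured in endothelial-like nuclei, 0 were past the fold as higher and 2 as lower, Vegfc and Nrp2. Over all genes of the class, 13.4% were past it as higher and 7.37% as lower. The lower members thus made up a larger share of the 6 than of all genes, in a list too short for more. When endothelial nuclei were instead picked by a marker gate on each nucleus, the ratios were 0.689 for Flt1, 0.647 for Kdr and 0.420 for Vegfc, lower than in the cluster for each.

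Other genes of vessel growth moved little in the same nuclei. Of 21 genes of the angiopoietin, Notch and endothelial junction pathways 13 were measured, and 0 were past the fold in either direction, with a median log2 ratio of -0.02, against 0.00 over all genes. Tek, the angiopoietin receptor, was at 729 CPM in WBRT-28d and 822 CPM in ShamRT-28d, a ratio of 0.887 (0.773 to 1.02). Cdh5, the cadherin of endothelial junctions, had a ratio of 0.853 (0.670 to 1.09), Nos3, the endothelial nitric oxide synthase, 0.987 (0.763 to 1.29), and Tie1, a partner of TEK, 0.877 (0.673 to 1.15).

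Of 29 genes that act below VEGF receptors 20 were measured in endothelial-like nuclei, 3 past the fold as higher and 0 as lower. Over all genes of the class 13.4% were higher and 7.37% lower, so 3 of 20 stood near the share of all genes. The median log2 ratio of the 20 was 0.12, against 0.00 over all genes. Ppp3ca, a subunit of calcineurin, had a ratio of 1.22 (1.07 to 1.39), and Ptk2, the focal adhesion kinase, 0.759 (0.652 to 0.884). Prkcb, a protein kinase C, was at 312 CPM in WBRT-28d and 206 CPM in ShamRT-28d, a ratio of 1.52 (1.17 to 1.98). Ppp3ca and Prkcb are abundant in neurons, and 6 of 8 neuron genes were past the fold as higher in these nuclei, and the part of neuronal RNA in these ratios was not tested. Of the 18 oxygen-sensing genes 8 were measured there, with 0 past the fold as higher and 1 as lower, beside the same shares of all genes. That gene was Ndrg1, at 174 and 298 CPM and a ratio of 0.584 (0.456 to 0.752), and Slc2a1, the glucose transporter of brain vessels, was at 612 and 898 CPM, a ratio of 0.681 (0.594 to 0.783).

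**Figure D3:**
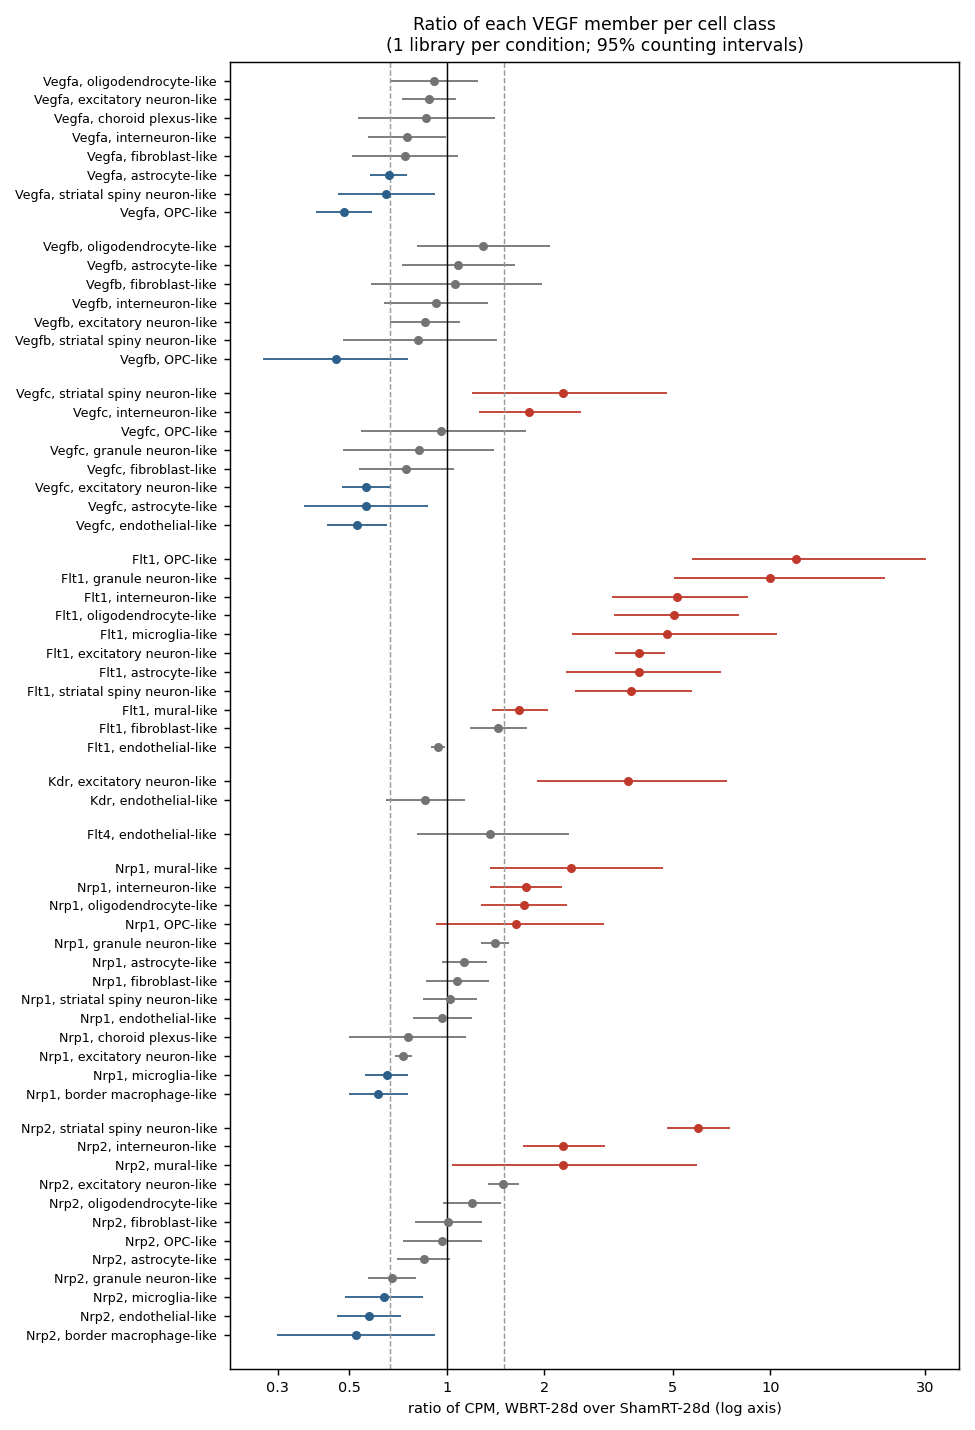
Ratio of CPM, WBRT-28d over ShamRT-28d (log axis), for the 62 pairs of a gene and a class with at least 50 UMIs, with 95% counting intervals; red is past 1.5-fold higher, blue past 1.5-fold lower, grey neither, and dashed lines mark the fold. Most of the 19 higher pairs are of Flt1 or the neuropilins, and the highest ratio is that of Flt1 in OPC-like nuclei, at 12.02.

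Outside the vessels Flt1 was higher in WBRT-28d in every class measured, and so were other endothelial genes. In 8 glial and neuronal classes Flt1 was at 26.9 to 68.6 CPM in WBRT-28d, against 4.65 to 10.3 CPM in ShamRT-28d. The ratio was 12.02 (5.72 to 30.3) in OPC-like nuclei, on 180 and 7 UMIs, and 9.98 (5.02 to 22.6) in granule neuron-like nuclei, on 87 and 9 UMIs. It was 5.14 (3.24 to 8.55) in interneuron-like, 5.03 (3.28 to 8.01) in oligodendrocyte-like and 4.79 (2.44 to 10.5) in microglia-like nuclei. It was 3.93 (3.30 to 4.71) in excitatory neuron-like, 3.93 (2.33 to 7.06) in astrocyte-like and 3.70 (2.49 to 5.72) in spiny neuron-like nuclei. With the marker gate the ratio was 1.18 in interneuron-like, 1.11 in microglia-like, 1.90 in astrocyte-like, 2.55 in oligodendrocyte-like, 7.70 in OPC-like and 7.21 in excitatory neuron-like nuclei. With doublets kept it was 1.58 in microglia-like, 3.35 in oligodendrocyte-like and 5.45 in OPC-like nuclei, at resolution 1.6 it was 8.78 in spiny neuron-like nuclei, and with each nucleus weighted the same 1.79 in excitatory neuron-like nuclei.

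These levels were small beside the endothelial one. In the 8 classes Flt1 was at 0.464% to 1.18% of the endothelial-like level in WBRT-28d and at 0.0752% to 0.167% in ShamRT-28d. The 9 other endothelial genes, summed, were at 0.708% to 1.56% of their endothelial-like level in WBRT-28d and at 0.183% to 0.342% in ShamRT-28d, and their ratio in these classes was 2.23 to 5.27, with a median of 3.36. Flt1 and these genes were thus both higher in WBRT-28d in the 8 classes, at a low share of the endothelial level. Flt1 per 100 UMIs of the 9 genes was higher in WBRT-28d in each of the 8 classes. It was higher in endothelial-like nuclei as well, at 42.9 against 36.8. It was 30.5 against 11.8 in granule neuron-like, 32.6 against 14.3 in OPC-like and 32.7 against 29.8 in excitatory neuron-like nuclei. The source of Flt1 in these nuclei was not tested. In OPC-, astrocyte-, microglia- and oligodendrocyte-like nuclei the same estimate of free RNA came to 109% to 217% of the Flt1 level in WBRT-28d. In ShamRT-28d it came to 119% to 1089%. An estimate above the counted level was too high for Flt1 and gave no corrected level. It was scaled by neuron genes, at 84.0% and 80.2% of their library mean in OPC-like nuclei, and not by vessel genes. The part of free RNA in Flt1 was not tested. No such estimate could be made for neurons. Kdr in excitatory neuron-like nuclei was also higher in WBRT-28d, at 2.75 CPM (41 UMIs) against 0.760 CPM (13 UMIs) in ShamRT-28d, a ratio of 3.62 (1.90 to 7.36). Endothelial-like nuclei held 57.2% of all Flt1 UMIs of WBRT-28d and 69.4% of those of ShamRT-28d.

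**Figure D4:**
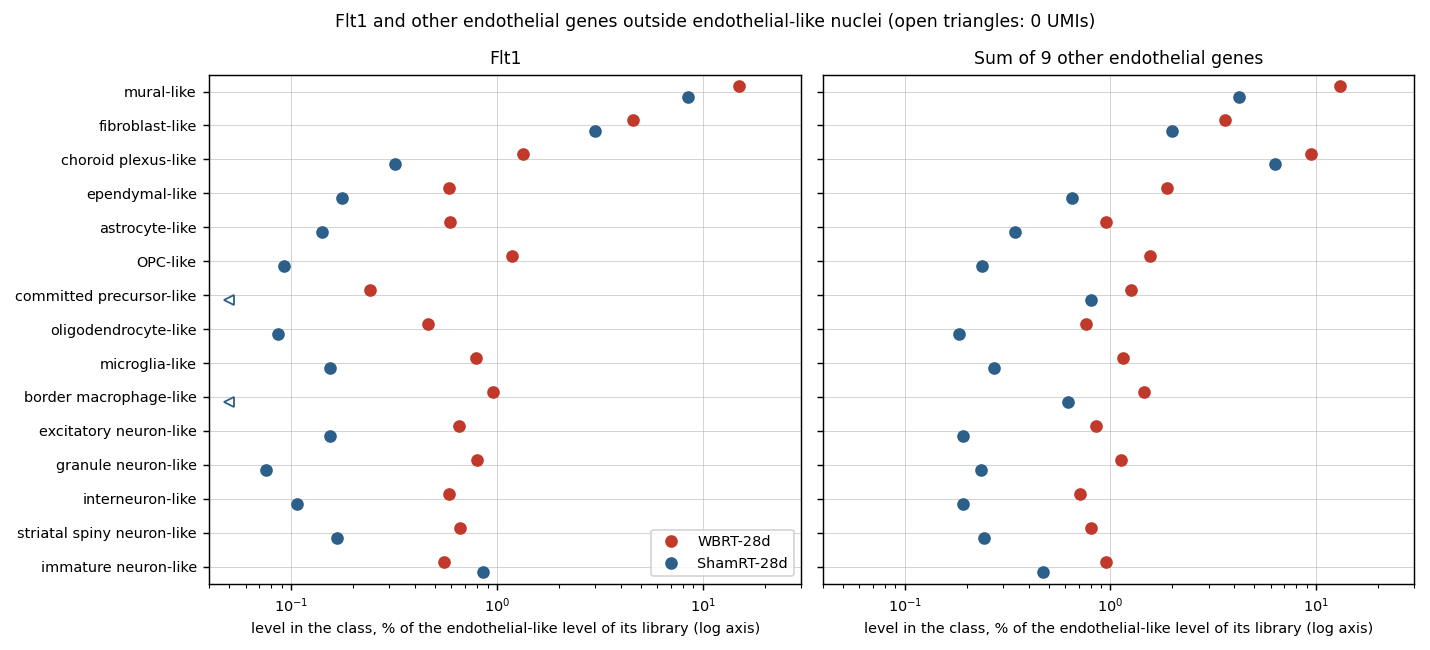
Level of Flt1 (left) and summed level of 9 other endothelial genes (right) in each class other than endothelial-like, as a percentage of the endothelial-like level of the same library (log axis), WBRT-28d in red above ShamRT-28d in blue; open triangles mark 0 UMIs. In the 8 glial and neuronal classes both are higher in WBRT-28d, Flt1 at 0.464% to 1.18% against 0.0752% to 0.167%.

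Mural-like nuclei, the pericytes and smooth muscle of vessels, had 873 CPM of Flt1 in WBRT-28d and 522 CPM in ShamRT-28d, a ratio of 1.67 (1.37 to 2.05). Flt1 was found in 48.1% and 49.6% of these 351 and 127 nuclei. The 9 endothelial genes were at 13.04% of their endothelial-like level in mural-like nuclei of WBRT-28d and at 4.22% in those of ShamRT-28d, and 9 mural markers summed to 8421 and 13252 CPM. Without the nuclei that held at least 2 endothelial markers, a choice made after the data were seen, 263 and 113 nuclei were left and Flt1 was at 259 and 422 CPM, a ratio of 0.615 (0.466 to 0.816). It was also below 1 at a clustering resolution of 1.6 (0.809) and with the marker gate (0.847), and 1.39 with each nucleus weighted the same. Fibroblast-like nuclei had 266 and 184 CPM of Flt1, a ratio of 1.44 (1.18 to 1.77), beside a ratio of 1.44 (1.25 to 1.68) for the 9 endothelial genes.

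Nrp1 was highest in border macrophage-like nuclei, the macrophages of meninges and vessel sheaths, and lower in WBRT-28d in both myeloid classes. The gene lies on chromosome 8 at 128358604 to 128503363 (plus strand) and encodes a co-receptor of KDR that also binds semaphorin 3A. Border macrophage-like nuclei held 183 UMIs, or 724 CPM, in WBRT-28d and 180 UMIs, or 1178 CPM, in ShamRT-28d, a ratio of 0.615 (0.497 to 0.759). Nrp1 was found in 67.0% of 103 nuclei of WBRT-28d and 77.4% of 62 nuclei of ShamRT-28d, with medians of 2072 and 2082.5 UMIs. Microglia-like nuclei had 227 CPM (324 UMIs) in WBRT-28d and 349 CPM (366 UMIs) in ShamRT-28d, a ratio of 0.652 (0.560 to 0.760), with the gene in 31.8% and 37.6% of nuclei (19.2% and 26.0% after thinning).

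The myeloid markers of these nuclei were lower as well. In microglia-like nuclei 8 markers summed to 8832 CPM in WBRT-28d and 11821 CPM in ShamRT-28d, and all 8 were lower, with ratios of 0.611 (P2ry12) to 0.902 (Inpp5d). In border macrophage-like nuclei 6 markers summed to 6011 and 9978 CPM, with ratios of 0.302 (Pf4) to 0.736 (Stab1). Neuron genes were at 33.1% of their library mean in border macrophage-like nuclei of WBRT-28d and 14.9% in those of ShamRT-28d. With the estimate of free RNA subtracted the Nrp1 ratio was 0.590 in microglia-like and 0.591 in border macrophage-like nuclei, and with each nucleus weighted the same it was 0.680 in microglia-like nuclei, just short of the fold.

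In neurons Nrp1 differed by class. Granule neuron-like nuclei had 508 CPM in WBRT-28d and 360 CPM in ShamRT-28d, a ratio of 1.41 (1.28 to 1.56), just under the fold. Excitatory neuron-like nuclei had 109 and 149 CPM, a ratio of 0.734 (0.689 to 0.781). This class pooled unlike clusters. The one led by Hs3st4, Tmem178 and Serinc2 held 157 and 390 nuclei, at a median of 8528 UMIs. The one led by Fam19a1, Pdzrn3 and Mlip held 1981 and 1762, at a median of 1714 UMIs. The part of this mix in the Nrp1, Nrp2 and Vegfc ratios of the class was not tested. Interneuron-like nuclei had 48.5 and 27.6 CPM, a ratio of 1.75 (1.36 to 2.28), while spiny neuron-like nuclei had 57.0 and 55.9 CPM, a ratio of 1.02 (0.843 to 1.24). Granule neuron-like nuclei ranked second in both libraries, apart from the next class in WBRT-28d, while in ShamRT-28d granule neuron-, endothelial- and microglia-like nuclei had intervals that overlapped.

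In vessels Nrp1 was at 349 CPM in endothelial-like nuclei of WBRT-28d and 360 CPM in those of ShamRT-28d, a ratio of 0.968 (0.788 to 1.20). In mural-like nuclei it was at 140 CPM (116 UMIs) and 58.0 CPM (13 UMIs), a ratio of 2.42 (1.36 to 4.67), and without nuclei holding at least 2 endothelial markers the ratio was 1.97 with an interval that included 1. With the marker gate it was 3.65 and with a minimum of 1000 genes 3.64. Nrp1 in fibroblast-like nuclei had a ratio of 1.08 (0.863 to 1.35), in astrocyte-like nuclei 1.13 (0.966 to 1.33) and in choroid plexus-like nuclei 0.757 with an interval that reached 1.15. Low levels of 21.3 to 25.6 CPM in WBRT-28d, against 13.04 to 14.8 CPM in ShamRT-28d, gave ratios of 1.73 (1.28 to 2.35) in oligodendrocyte-like and 1.64 (0.926 to 3.06) in OPC-like nuclei. The OPC-like ratio was 1.47 at resolution 1.6 and 0.570 with the marker gate, and the interneuron-like one 0.867 with the gate and 1.42 with each nucleus weighted the same.

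Nrp2 had the largest difference of the neuropilins, in spiny neuron-like nuclei. It lies on chromosome 1 at 62703285 to 62818695 (plus strand) and encodes a co-receptor for VEGF-C and for semaphorins 3C and 3F. Spiny neuron-like nuclei held 1413 Nrp2 UMIs, or 197 CPM, in WBRT-28d and 86 UMIs, or 32.9 CPM, in ShamRT-28d, a ratio of 5.97 (4.80 to 7.51). Nrp2 was found in 34.0% of 1592 nuclei of WBRT-28d and 7.76% of 490 nuclei of ShamRT-28d, at medians of 3104.5 and 3275 UMIs, and in 14.8% and 2.59% after thinning. The class made up 11.3% of kept nuclei of WBRT-28d and 4.74% of those of ShamRT-28d.

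The class was made of 3 clusters, of which the largest had 3 spiny neuron markers among its 10 leading genes and the others 0. The largest, led by Sh3rf2, Drd2 and Mhrt, had 133 CPM of Nrp2 in 1079 nuclei of WBRT-28d and 12.3 CPM in 400 nuclei of ShamRT-28d, a ratio of 10.8 (7.29 to 16.6). A cluster led by Npffr2, Chst9 and Gm13974 had 115 and 47.0 CPM, a ratio of 2.46 (1.55 to 4.11). At a clustering resolution of 1.6 the cluster led by these genes stayed unnamed. The third, led by Stac, Gm12068 and Drd3, had the highest level, 658 and 510 CPM, and a ratio of 1.29 (0.936 to 1.82), but it held 205 nuclei of WBRT-28d and 14 of ShamRT-28d. The ratio was thus above 1 in each of the 3 clusters, with an interval that included 1 in the third, and the numbers of nuclei among them differed too. With the marker gate the ratio of the class was 11.8. At a clustering resolution of 1.6 a spiny neuron-like cluster led by Slc22a3, Tnnt1 and Wnt2 held 117 nuclei of WBRT-28d and 2 of ShamRT-28d. Numbers of nuclei can thus differ within a cluster as well, and their part in these ratios was not tested. Which brain region each library sampled cannot be told apart from irradiation.

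Of 12 semaphorin and plexin genes that act with neuropilins, 10 were measured in spiny neuron-like nuclei, 4 past the fold as higher and 3 as lower, with a median log2 ratio of 0.14, against 0.11 over all genes. Plxna4, the neuropilin partner with the most UMIs, was at 399 CPM in WBRT-28d and 206 CPM in ShamRT-28d, a ratio of 1.94 (1.77 to 2.13), and Plxna2 had a ratio of 1.23 (1.11 to 1.36). Sema3a, the ligand of NRP1, was at 96.4 and 193 CPM, a ratio of 0.501 (0.446 to 0.563), and Sema3e had a ratio of 0.994 (0.883 to 1.12). Over all genes of the class 13.7% were past the fold as higher and 6.57% as lower, and of the VEGF genes 6 were measured, with 3 higher (Flt1, Nrp2 and Vegfc) and 1 lower (Vegfa).

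In endothelial-like nuclei Nrp2 was at 207 CPM (205 UMIs) in WBRT-28d and 360 CPM (128 UMIs) in ShamRT-28d, a ratio of 0.574 (0.458 to 0.721), with the gene in 21.8% and 25.0% of nuclei and in 14.6% and 20.1% after thinning. This was close to the ratio of 0.527 of Vegfc, its ligand, in the same nuclei, while Nrp1 and Kdr had intervals that included 1. Among the 16 named classes, endothelial-like nuclei had the highest Nrp2 level in both libraries. In WBRT-28d their interval overlapped that of spiny neuron-like nuclei, and in ShamRT-28d they stood apart from the next class. Unnamed clusters, which held 22.9% and 38.2% of Nrp2 UMIs, were not ranked. The spiny neuron cluster led by Stac had a higher level in both libraries. An unnamed cluster almost wholly of ShamRT-28d had a higher level in that library.

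The myeloid classes again had less of it in WBRT-28d. The Nrp2 ratio was 0.640 (0.484 to 0.845) in microglia-like nuclei, at 69.5 and 109 CPM, and 0.524 (0.298 to 0.916) in border macrophage-like nuclei, at 103 and 196 CPM. Of the 9 genes 3 were measured in microglia-like nuclei (Nrp1 and Nrp2 lower, Flt1 higher) and 2 in border macrophage-like nuclei, both lower. Over all genes 12.3% were past the fold as higher and 6.47% as lower in microglia-like nuclei, and 27.0% were past it in either direction in border macrophage-like nuclei.

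In the other neurons the Nrp2 ratio was 2.29 (1.72 to 3.08) in interneuron-like nuclei, at 45.9 and 20.1 CPM, 1.496 (1.34 to 1.67) in excitatory neuron-like nuclei, just under the fold, and 0.678 (0.571 to 0.804) in granule neuron-like nuclei, at 122 and 179 CPM. In granule neuron-like nuclei Nrp1 and Nrp2 thus lay on opposite sides of 1. Plxna4 in these nuclei had a ratio of 0.809 (0.767 to 0.853) and Plxna2 1.32 (1.14 to 1.53), with 4 of the 12 semaphorin and plexin genes measured and 0 past the fold. In mural-like nuclei the Nrp2 ratio was 2.28 (1.04 to 5.92), on 59 and 7 UMIs, 3.55 with a minimum of 1000 genes, and 1.51 (0.606 to 4.48) without nuclei holding at least 2 endothelial markers.

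Nrp2 was at 150 and 148 CPM in fibroblast-like nuclei, a ratio of 1.01 (0.795 to 1.28), and at 79.8 and 94.1 CPM in astrocyte-like nuclei, a ratio of 0.848 (0.703 to 1.03). The ratio was 0.966 (0.730 to 1.29) in OPC-like and 1.20 (0.974 to 1.48) in oligodendrocyte-like nuclei. These 4 intervals included 1.

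Read against all genes, the counts of members past the fold were as follows in the remaining classes. In interneuron-like nuclei 4 of 6 measured members were higher and 0 lower, where 4.05% of all genes were higher and 6.65% lower. In mural-like nuclei 3 of 3 were higher, where 21.5% of all genes were higher and 8.5% lower, but without nuclei holding at least 2 endothelial markers Flt1 was lower past the fold and the intervals of Nrp1 and Nrp2 included 1. In granule neuron-like nuclei 1 of 4 was higher and 0 lower, where 7.91% and 5.92% of all genes were. In excitatory neuron-like nuclei 2 of 7 were higher and 1 lower, where 7.2% and 6.73% of all genes were. In oligodendrocyte-like nuclei 2 of 5 were past the fold, both higher, where 17.8% of all genes were past it in either direction. In fibroblast-like nuclei 0 of 6 members and in choroid plexus-like nuclei 0 of 2 were past it, where 14.5% and 19.2% of all genes were. Flt1 was among the higher members in each class that had any, and the other endothelial genes, summed, were higher there too, as given above.

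Pairing levels over the 16 classes and both libraries, 32 points that share libraries and depth, the 3 genes most like each member among 14149 ranked genes were found by Pearson's r of log2(CPM + 1). For Vegfa they were Ddhd1 (0.830), Mtss1l (0.773) and Pcx (0.773). For Vegfb they were Akr1b10 (0.733), Pid1 (0.716) and Rhoq (0.700), and for Vegfc Kank4 (0.786), Usp53 (0.746) and Rai14 (0.743). Flt1 was nearest to Emcn (0.916), Fn1 (0.875) and Apcdd1 (0.861), and Kdr to Pglyrp1 (0.894), Tead4 (0.893) and Ccm2l (0.872). Nrp1 was nearest to B4galt1 (0.849), Sec14l1 (0.846) and Arpc2 (0.832), and Nrp2 to Smpdl3b (0.720), Tspan13 (0.690) and Jun (0.686). The values describe these libraries only.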

How the data were processed

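UMI matrices of 2 single-nucleus libraries, 1 per condition, were analysed. The deposited files hold raw UMI counts per gene and barcode, which the authors made with Cell Ranger on mm10 and did not normalize. R 3.5.3 and Seurat 3.0 are named in the submitters' processing notes too. Clustering used Seurat 5.3.0 and Matrix 1.6.5 in R 4.3.3, and sums and intervals used pandas 2.3.3, scipy 1.17.1 and numpy 2.4.6 in Python 3.11.15, with scanpy 1.11.5 for doublets and matplotlib 3.10.9 for plots.

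Barcodes under 500 genes (0 in WBRT-28d and 326 in ShamRT-28d) or over 5% mitochondrial UMIs (318 and 107) were left out, as were doublets called by Scrublet (1626, or 10.2%, and 698, or 6.09%). Both libraries were clustered together without integration, giving 33 clusters. Clusters were named from marker lists, and the thresholds for a name were set after the clusters were seen. Of these, 6 clusters stayed unnamed. The members and lists were chosen with earlier results of these data known.

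UMIs were summed per class and library. CPM carry exact Poisson intervals, ratios exact conditional binomial intervals and shares exact Clopper-Pearson intervals, all at 95%. Shares were thinned to 1000 UMIs per nucleus by exact expectation. Nuclei under 1000 UMIs were left out of every thinned share. Over all kept nuclei these were 0 in WBRT-28d and 484 in ShamRT-28d, so only ShamRT-28d lost its shallowest nuclei. A ratio needed 50 UMIs over both libraries. The ratios were also run on simulated counts drawn as independent, as the intervals assume, so that run could not test spread between nuclei, mice or libraries. Genes named were the 9 members, the list genes with the most UMIs in a class, and the 3 genes most correlated with each member of at least 500 UMIs, among genes of at least 200 UMIs. Of these, 1 list gene that met this rule is not reported here. A few further genes past the fold and the leading genes of clusters were named after their values were seen. Promoters and gene positions came from RefSeq and GENCODE on GRCm38.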

Additional observations from a re-analysis of the deposited data

Results flagged for a closer look

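Vegfc, Nrp1 and Nrp2 had ratios on opposite sides of 1 in 2 classes, both past the fold with intervals that excluded 1. Vegfc had a ratio of 2.28 in striatal spiny neuron-like nuclei and 0.527 in endothelial-like nuclei. Nrp1 had a ratio of 2.42 in mural-like nuclei, on 13 UMIs in ShamRT-28d, and 0.615 in border macrophage-like nuclei. Without mural-like nuclei holding at least 2 endothelial markers the ratio was 1.97 (0.961 to 4.55), which includes 1. Border macrophage markers had ratios of 0.302 (Pf4) to 0.736 (Stab1) in their own class. Nrp2 had a ratio of 5.97 in striatal spiny neuron-like nuclei and 0.524 in border macrophage-like nuclei. With 1 library per condition the difference between classes was not tested.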

How the results depend on the processing

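No paired analysis was possible because each condition had 1 library. Of the ratios recomputed under the main set of alternatives, 418 stayed within the counting interval, 30 moved and 4 turned, and under those added after seeing the data 31 kept it, 34 moved and 3 turned. With doublets kept the Flt1 ratio in endothelial-like nuclei was 0.840, and with a marker gate per nucleus 0.689, with Kdr at 0.647 and Vegfc at 0.420. The count of ratios past the fold as higher outside neurons was 3 in place of 9 after an estimate of free RNA was subtracted, which gave a value for 31 of 39 such pairs and left 8 at or under 0. That estimate is scaled by neuron genes and exceeded the counted Flt1 in some classes. The fall from 9 to 3 therefore does not show which ratios were free RNA. Thinning to 1000 UMIs gave Vegfa shares of 12.9% of astrocyte-like nuclei in WBRT-28d and 18.4% in ShamRT-28d. The Vegfa ratio was 0.564 in the larger astrocyte cluster alone and turned to 1.23 in the smaller one. The Flt1 ratio in mural-like nuclei turned to 0.809 at a clustering resolution of 1.6, to 0.847 with the gate and to 0.615 without nuclei holding at least 2 endothelial markers, and in spiny neuron-like nuclei to 0.792 in the cluster led by Npffr2 alone. With the gate the Nrp1 ratio turned to 0.570 in OPC-like and to 0.867 in interneuron-like nuclei. For Flt1 in the spiny neuron cluster led by Stac no ratio could be formed, since ShamRT-28d had 0 UMIs there. Of the 31 ratios past the fold 10 were not past it on the same side under at least 1 of the main alternatives, and of the 31 others 11 were past it under at least 1. The causes were not tested. Scaling by a median of ratios, and leaving mitochondrial genes and Malat1 out of the total, kept all 62 ratios within their intervals. Depth limits Pgf, Flt4 and every class of under 100 nuclei, and no value covers the spread between mice.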

Other observations

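Nuclei of the unnamed clusters held 22.9% of the Nrp2 UMIs of WBRT-28d and 38.2% of those of ShamRT-28d. A neuron cluster led by Baiap3, of 838 nuclei in WBRT-28d and 480 in ShamRT-28d, had 98.4 and 175 CPM of Nrp1 and 134 and 206 CPM of Nrp2. A cluster led by Gm12128, Pou4f1 and Gm12130, almost wholly of ShamRT-28d with 2 and 135 nuclei, had 412 and 746 CPM of Nrp2.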
